A study of Homo sapiens with 9 samples.

Results

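The genes described here are 10 immediate early and feedback genes of the mitogen-activated protein kinase (MAPK) pathway, FOS, JUN, EGR1, IER3, DUSP4, DUSP6, SPRY2, SPRY4, ETV4 and ETV5, followed over 9 two-colour arrays. Taking every probe whose platform gene symbol is one of these names gave 13 probes of 9 genes, among 35328 probes on the array, of which 23688 could be assigned to 16166 genes. SPRY4 was absent from those symbols, and 1 further probe was assigned to it through its transcript accession, so 14 probes are described. DUSP4 had 3 probes, IER3 and DUSP6 had 2 each, and the other genes had 1 each. Probes 1 and 2 of DUSP4 were designed on the same transcript and probe 3 on another, whereas the 2 IER3 probes came from different transcripts. A probe annotated to both FOS and JDP2 was left out.

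The cells were SKbr3, an established human breast adenocarcinoma line in which the receptor tyrosine kinase gene ERBB2 (HER2) is amplified. They were treated with 1 of 3 different siRNAs against TRMT12 (current symbol TYW2), an enzyme that helps build the modified base wybutosine in phenylalanine tRNA, and were compared with SKbr3 cells given control siRNA. Each TRMT12 siRNA was hybridised on 3 arrays against the control. The knockdown RNA carried the dye Cy5 on arrays 1 and 2 and Cy3 on array 3, the dye-swapped array. The ratio was knockdown over control on every array. Nothing in the labels says whether separate cultures lie behind an siRNA's 3 arrays, and p-values for a single siRNA thus measure hybridisation spread, possibly technical. Whether the control RNA was shared between siRNAs is not settled by the labels, and comparisons with the different siRNAs may therefore share it. The sources used here do not give the dose, the time after transfection or the siRNA sequences.

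The MAPK pathway carries growth factor signals from receptors such as HER2 through RAS, RAF and MEK to the kinase ERK. Active ERK induces immediate early genes, whose transcription needs no new protein synthesis, among them the transcription factors FOS, JUN and EGR1. It also induces its own inhibitors, the dual-specificity phosphatases and the Sprouty proteins, and the ETS-family factors ETV4 and ETV5, so that levels of these transcripts are widely used as readouts of pathway output in HER2-driven breast cancer cells.

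The promoters of FOS, EGR1 and JUN are shown because these are the classical immediate early transcription factors among the members and FOS and EGR1 had the largest means over the siRNAs. They are the 250 bases before the annotated start, 5′ to 3′ on the gene's strand, from RefSeq (GRCh38.p14), where 6 of the 10 members had an entry. The windows are chr14:75278578-75278827 on the plus strand for FOS, chr5:138465229-138465478 on the plus strand for EGR1 and chr1:58784048-58784297 on the minus strand for JUN. Capitals mark every match, on either strand, to the motifs searched: the CArG box bound by serum response factor, the cAMP response element core TGACGT, the AP-1 site TGANTCA, the ETS core CGGAAG and the EGR site GCGNGGGCG. A core on the opposite strand appears as its reverse complement.
FOS: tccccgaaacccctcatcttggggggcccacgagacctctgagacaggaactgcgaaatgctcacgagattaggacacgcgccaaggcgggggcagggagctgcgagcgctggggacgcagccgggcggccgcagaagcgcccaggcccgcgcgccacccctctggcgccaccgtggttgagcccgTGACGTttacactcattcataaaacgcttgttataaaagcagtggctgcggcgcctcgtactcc
EGR1: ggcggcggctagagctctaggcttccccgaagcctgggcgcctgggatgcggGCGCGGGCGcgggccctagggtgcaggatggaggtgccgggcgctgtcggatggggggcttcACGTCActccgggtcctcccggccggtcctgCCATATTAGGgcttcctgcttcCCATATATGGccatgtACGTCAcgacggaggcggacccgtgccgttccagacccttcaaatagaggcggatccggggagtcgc
JUN: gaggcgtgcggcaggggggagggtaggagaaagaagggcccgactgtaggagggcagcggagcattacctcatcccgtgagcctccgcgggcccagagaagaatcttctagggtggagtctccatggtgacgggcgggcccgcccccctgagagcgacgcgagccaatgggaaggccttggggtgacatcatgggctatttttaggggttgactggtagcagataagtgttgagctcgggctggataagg
The EGR1 window held 2 CArG boxes, at 105 to 96 and at 83 to 74 bases before the start. It also held 2 cAMP response element cores, at 136 to 131 and at 67 to 62 bases, and 1 EGR site at 198 to 190 bases. No 2 of these matches overlapped. The FOS window held 1 such core, at 64 to 59 bases before the start. Bases more than 250 before the start were not searched for any gene, so a CArG box or other site there would be missed. The JUN window held no exact match to any motif searched. Variant spellings of these motifs were not searched, so a window without a match may still hold a related site. A CArG box was found in 1.16% of 35116 promoter windows of this length, the cAMP response element core in 7.1%, the AP-1 site in 6.57%, the ETS core in 16.48% and the EGR site in 8.41%. Of the other members with an entry, DUSP6 had 1 ETS core at 62 to 57 bases, SPRY4 had 1 EGR site and SPRY2 had 2 EGR sites in 1 of its 3 windows. These matches are descriptions of the sequence and not measured sites.

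TRMT12 was lower on all 9 arrays, with log2 ratios between -2.73 and -2.35, and its mean over the 3 siRNAs was -2.53 ± 0.0734 (SE, n = 3 siRNAs; adjusted p = 0.00992, limma). Of 28128 tested probes it was the single one called across the siRNAs, 0.00356% of them, although 23.4% had an unadjusted p under 0.05. That count moved with the processing, from 0 to 791 probes when 1 array was left out (791 without siRNA 2 array 2 and 281 without siRNA 1 array 2) and from 0 to 5091 under the other settings run. A call is a Benjamini-Hochberg adjusted p under 0.05 over all tested probes. The median background-subtracted signal of an array ranged from 180.55 to 429.45 for the knockdown RNA and from 133.45 to 527.45 for the control RNA. The 9 markers of luminal or HER2-amplified epithelium that had a probe were above background on all 9 arrays, 8 of them also above the upper quartile of the randomized negative control probes. For the cell types the culture should lack, 4 of 5 fibroblast, 1 of 3 endothelial and 3 of 5 blood markers exceeded local background on all 9 arrays, and 1, 0 and 1 exceeded that quartile.

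None of the 13 tested member probes was called across the 3 siRNAs by limma, and 6 had an unadjusted p under 0.05 (EGR1, FOS, DUSP4 probe 3, JUN and SPRY2 above 0 and ETV5 below). With each siRNA taken singly 4 of 13 were called. FOS, EGR1, DUSP4 probe 2 and DUSP4 probe 3 rose with siRNA 1, where 23% of all tested probes were called (11.7% higher, 11.3% lower). FOS, EGR1 and DUSP6 probe 1 rose and ETV5 fell with siRNA 2, against 20.4% of all probes (10.6% higher, 9.79% lower). EGR1 rose and IER3 probe 1, DUSP4 probe 1 and DUSP4 probe 2 fell with siRNA 3, against 20.1% (9.96% higher, 10.2% lower). EGR1 was the single member called in the same direction with each siRNA, as 3.26% of all tested probes were in the higher direction and 2.6% in the lower. The share of calls that were higher depended on the scaling. It was 50.8%, 51.9% and 49.5% for siRNA 1, 2 and 3 after loess normalization, 30.8%, 49.8% and 24.3% after median centring and 38.8%, 39.9% and 32.4% in the authors' deposited ratios. Taking the brightest tested probe of each of the 10 genes, the median log2 ratio over the siRNAs was 0.13 and 6 were above 0, beside a median of -0.0075 over 14069 genes.

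**Figure D1:**
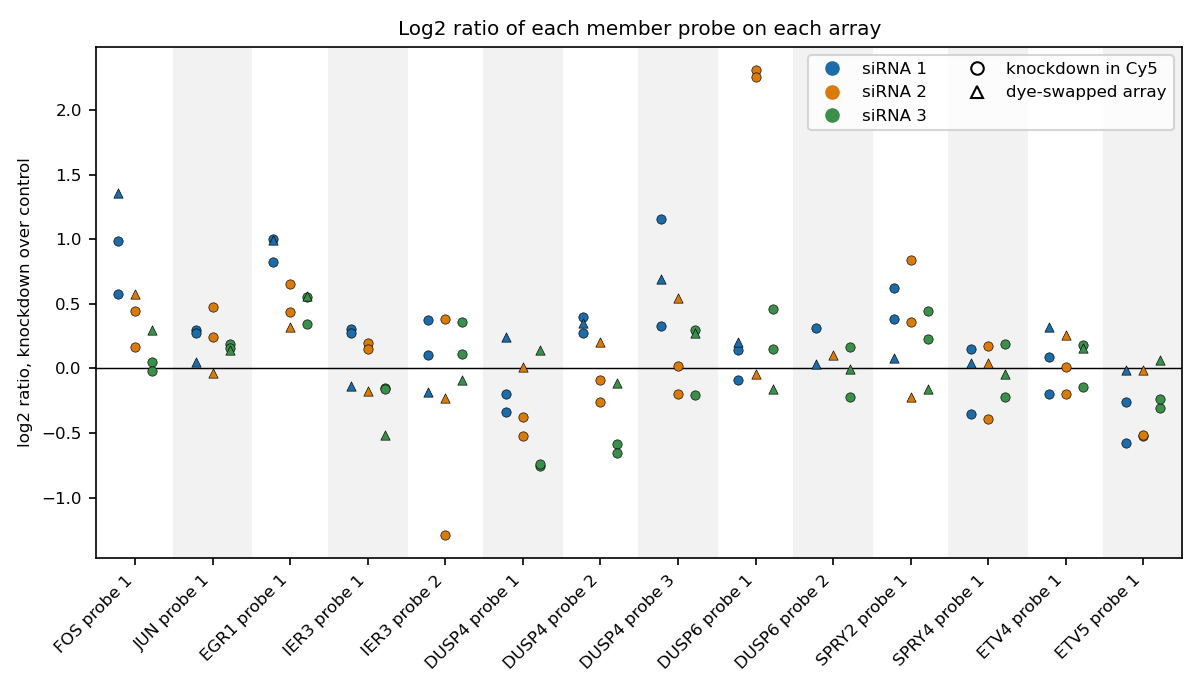
Each point is the normalized log2 ratio (knockdown over control, y axis) of 1 member probe on 1 array, in colours by siRNA, with circles where the knockdown carried Cy5 (6 arrays) and triangles for the 3 dye-swapped arrays. EGR1 lies above 0 on all 9 arrays, FOS on 8 of 9, and the 2 points of DUSP6 probe 1 above 2 are both Cy5 arrays of siRNA 2.

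FOS encodes the partner of JUN in the AP-1 transcription factor. Its log2 ratio was 0.58, 0.99 and 1.36 on arrays 1, 2 and 3 of siRNA 1. On the arrays of siRNA 2 it was 0.44, 0.17 and 0.58. With siRNA 3 it was 0.05, -0.02 and 0.30. The 3 arrays of siRNA 1 did not overlap those of siRNA 3, and the dye-swapped array was the highest of the 3 with every siRNA. For this and the members below, how many of all tested probes separated by siRNA in this way was not counted. The dye-adjusted estimate was 1.04 ± 0.0987 (SE, n = 3 arrays) with siRNA 1, a 2.05-fold higher level (adjusted p = 0.000852). With siRNA 2 it was 0.46 ± 0.0987 (adjusted p = 0.0205) and with siRNA 3 0.17 ± 0.0987 (adjusted p = 0.298). FOS therefore rose with siRNA 1 and siRNA 2. In RNA from whole cultures, more cells with a transcript and more transcript per cell cannot be told apart. The mean over the 3 siRNAs was 0.56 ± 0.182 (adjusted p = 0.168), with a 95% interval from 0.09 to 1.02.

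The FOS response was smaller with siRNA 3 than with siRNA 1, with a log2 difference of -0.87 ± 0.137 (adjusted p = 0.0149), in a comparison where 9.34% of all tested probes were called. The difference between siRNA 2 and siRNA 1 was -0.58 ± 0.137 (adjusted p = 0.0814), and that between siRNA 3 and siRNA 2 was -0.29 ± 0.137 (adjusted p = 0.244). The probe was dim. Its knockdown signal lay between 299.4 and 807.4 and its control signal between 152.6 and 449.1, at least 1 channel exceeded the upper quartile of the negative control probes on 8 of 9 arrays, and both channels did on 2 of 9. The siRNA 2 call was lost without its array 1 (0.37, adjusted p = 0.0643) and without its array 3 (0.52, adjusted p = 0.0738). The difference between siRNA 3 and siRNA 1 missed the threshold without siRNA 1 array 3 (-0.77, adjusted p = 0.0632) or without any single array of siRNA 3 (-0.90, -0.86 and -0.82, adjusted p = 0.06, 0.0618 and 0.0683).

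EGR1 is a zinc finger transcription factor induced through serum response factor and its ETS partners. Its log2 ratio was 0.82, 1.00 and 0.99 on the arrays of siRNA 1. With siRNA 2 it was 0.66, 0.44 and 0.32, and with siRNA 3 it was 0.55, 0.35 and 0.56. Every array of siRNA 1 was higher than every array of the other siRNAs, which overlapped each other. The share of all tested probes with such a separation was not counted. EGR1 was the member with a positive ratio on all 9 arrays, as were 6.98% of the 24563 tested probes with 9 ratios. No member probe was below 0 on all 9, as 7.63% of those probes were. The estimates were 0.94 ± 0.0833 with siRNA 1 (1.91-fold, adjusted p = 0.000694), 0.47 ± 0.0833 with siRNA 2 (1.39-fold, adjusted p = 0.0103) and 0.49 ± 0.0833 with siRNA 3 (1.40-fold, adjusted p = 0.00839).

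Across the siRNAs EGR1 averaged 0.63 ± 0.12 (SE, n = 3 siRNAs; adjusted p = 0.0896), with a 95% interval from 0.32 to 0.94. The fit without siRNA 2 array 2 called it (0.65, adjusted p = 0.0462). Relative to siRNA 1, the response was -0.47 ± 0.115 with siRNA 2 (adjusted p = 0.0915, where 2.62% of all probes were called) and -0.45 ± 0.115 with siRNA 3 (adjusted p = 0.0587). Neither difference passed the threshold, and the second did without siRNA 2 array 1 or array 2 (both -0.45, adjusted p = 0.0367 and 0.0489). Over all alternatives run, the first was called in 3 of 20 and the second in 7 of 20. The EGR1 probe had at least 1 channel above the upper quartile of the negative controls on 9 of 9 arrays and both on 8 of 9. Its means in both dye orientations were nearly equal, 0.64 ± 0.245 (SD, n = 6) with the knockdown in Cy5 and 0.62 ± 0.34 (SD, n = 3) on the swapped arrays. The call with siRNA 3 was lost without its array 1 (0.46, adjusted p = 0.0518) and without its array 3 (0.41, adjusted p = 0.0994).

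JUN, the AP-1 partner of FOS, gave smaller ratios. They were 0.30, 0.27 and 0.05 with siRNA 1, 0.24, 0.47 and -0.03 with siRNA 2, and 0.19, 0.16 and 0.15 with siRNA 3. The ratios of the 3 siRNAs overlapped, and the dye-swapped array was the lowest with each. The estimates of 0.17, 0.19 and 0.13 (SE 0.0711 each) did not pass the threshold (adjusted p = 0.139, 0.103 and 0.283), nor did the mean of 0.16 ± 0.0632 (adjusted p = 0.211). Their 95% intervals reached up to 0.34, 0.36 and 0.30. The call with siRNA 1 appeared when siRNA 2 array 2 was left out (0.18, adjusted p = 0.0407).

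**Figure D2:**
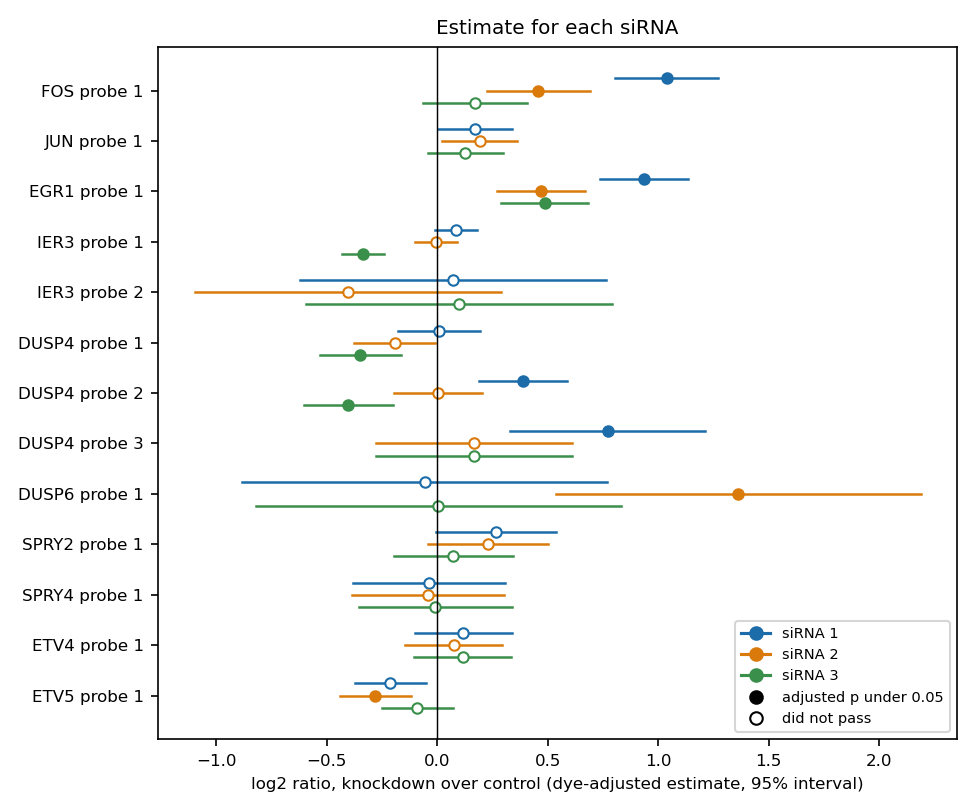
The dye-adjusted log2 ratio (x axis) of each of the 13 tested member probes is given for each siRNA as a point with its 95% interval, and filled points passed an adjusted p of 0.05. EGR1 is filled for all 3 siRNAs, FOS for siRNA 1 and siRNA 2, and IER3 probe 1 and DUSP4 probes 1 and 2 lie below 0 with siRNA 3.

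IER3 is a short-lived early response protein that protects ERK from dephosphorylation and modulates apoptosis. Its probe 1 was well above the negative controls in both channels on all 9 arrays, with signals from 3637.6 to 19933.3. The log2 ratio was 0.31, 0.27 and -0.13 with siRNA 1. It was 0.20, 0.15 and -0.18 with siRNA 2 and -0.15, -0.16 and -0.51 with siRNA 3. Within each dye orientation the array or arrays of siRNA 3 were the lowest, and the swapped array was the lowest of each siRNA's 3. The probe fell by 0.34 ± 0.0397 on the log2 scale with siRNA 3 (1.26-fold lower, adjusted p = 0.00244). The estimates of 0.09 with siRNA 1 (adjusted p = 0.174) and -0.01 with siRNA 2 (adjusted p = 0.929) did not pass.

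The difference of IER3 probe 1 between siRNA 3 and siRNA 1 was -0.42 ± 0.055 (adjusted p = 0.00992) and that between siRNA 3 and siRNA 2 was -0.33 ± 0.055 (adjusted p = 0.0161), in a comparison where 10.2% of all probes were called. Without siRNA 3 array 1 the first was -0.42 with an adjusted p of 0.0518. The second missed the threshold without siRNA 2 array 3 (-0.32, adjusted p = 0.0507) or without any single array of siRNA 3 (-0.33, -0.33 and -0.34, adjusted p = 0.0703, 0.0679 and 0.0535). IER3 probe 2, on another transcript, was dimmer and its ratios ran from -1.29 to 0.39. The lowest was siRNA 2 array 2, a spot of quality 0.2 on a scale to 1. The probe 2 estimates of 0.07, -0.41 and 0.10 (SE 0.291 each) were not called, and with siRNA 3 its sign was opposite to that of probe 1. Averaging both probes gave -0.12 with siRNA 3 (adjusted p = 0.695), so the fall was measured by 1 of 2 IER3 probes. In that average the difference between siRNA 3 and siRNA 1 was -0.20 (adjusted p = 0.662) and that between siRNA 3 and siRNA 2 was 0.09 (adjusted p = 0.829).

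DUSP4 is a nuclear phosphatase that inactivates ERK and other MAP kinases, and its 3 probes did not give the same picture. Probe 1 was bright in both channels on all 9 arrays. Its log2 ratio was -0.20, -0.34 and 0.25 with siRNA 1, -0.38, -0.53 and 0.01 with siRNA 2, and -0.75, -0.74 and 0.14 with siRNA 3. The 6 Cy5 arrays were all below 0 and the 3 swapped arrays all above it. Adjusted for the dye, probe 1 fell by 0.35 ± 0.0778 with siRNA 3 (1.27-fold lower, adjusted p = 0.0221). The estimates were 0.01 with siRNA 1 (adjusted p = 0.966) and -0.19 with siRNA 2 (adjusted p = 0.126). The siRNA 3 call was lost without its array 1 (-0.30, adjusted p = 0.113) or its array 2 (-0.31, adjusted p = 0.108).

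DUSP4 probe 2, on the same transcript as probe 1 but dim, gave log2 ratios of 0.27, 0.40 and 0.35 with siRNA 1. They were -0.09, -0.26 and 0.20 with siRNA 2, and -0.59, -0.65 and -0.12 with siRNA 3. The arrays of siRNA 1 were all above those of siRNA 2 and siRNA 3, a separation not counted over all tested probes. It rose by 0.39 ± 0.0838 with siRNA 1 (adjusted p = 0.0173) and fell by 0.40 ± 0.0838 with siRNA 3 (adjusted p = 0.0171). With siRNA 2 the estimate was 0.0022 (adjusted p = 0.988). The difference between siRNA 3 and siRNA 1 was -0.79 ± 0.116 (adjusted p = 0.0127). That between siRNA 3 and siRNA 2 was -0.40 ± 0.116 (adjusted p = 0.0781), called without siRNA 1 array 3 (adjusted p = 0.041). The siRNA 1 call was lost without its array 1 (0.37, adjusted p = 0.0665) or its array 2 (0.31, adjusted p = 0.0713). The siRNA 3 call and the difference were lost without siRNA 3 array 1 (-0.38, adjusted p = 0.0851, and -0.77, adjusted p = 0.0608) or its array 2 (-0.35, adjusted p = 0.0893, and -0.74, adjusted p = 0.0546).

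DUSP4 probe 3, designed on another transcript, was in the range of the negative controls on all 9 arrays and its control channel was above local background on 7 of 9. It read 0.33, 1.16 and 0.69 with siRNA 1, 0.02, -0.20 and 0.55 with siRNA 2, and -0.20, 0.30 and 0.27 with siRNA 3. On siRNA 1 array 2, which gave 1.16, the control channel was not above local background. The estimate of 0.77 ± 0.186 with siRNA 1 passed (adjusted p = 0.0263), and those with siRNA 2 and siRNA 3 were both 0.17 (adjusted p = 0.55 and 0.632). Without siRNA 1 array 2 the siRNA 1 value was 0.51 (adjusted p = 0.0613), without its array 3 it was 0.96 (adjusted p = 0.0845), and without siRNA 3 array 3 it was 0.78 (adjusted p = 0.0518). With siRNA 1 the bright probe gave 0.01 beside 0.39 and 0.77 at the dim ones. With siRNA 3 both probes of the shared transcript fell and probe 3 read 0.17. The average of the 3 probes was 0.39 with siRNA 1 (adjusted p = 0.0197) and -0.19 with siRNA 3 (adjusted p = 0.183), and its difference between siRNA 3 and siRNA 1 was -0.58 (adjusted p = 0.0334).

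DUSP6 is the cytoplasmic phosphatase specific for ERK. Neither of its probes exceeded the upper quartile of the negative controls on any array. Probe 1 gave log2 ratios of 0.14, -0.09 and 0.21 with siRNA 1. With siRNA 2 they were 2.31, 2.25 and -0.04, and with siRNA 3 0.15, 0.46 and -0.16. The first pair of siRNA 2 arrays stood far above the other 7. On both the spot quality was 0 and the control signal, 35.2 and 30.1, was not above local background, and the authors' deposited ratios of the same spots were 1.27 and 1.12 in log2. On the swapped array of siRNA 2, with both channels above local background, the ratio was near 0. The siRNA 2 estimate of 1.36 ± 0.347 (adjusted p = 0.0357) rested on those 2 arrays. After median centring it was 0.85 (adjusted p = 0.0887) and in the authors' deposited ratios 0.83 (adjusted p = 0.0908). Without siRNA 2 array 1 it was 1.11 (adjusted p = 0.102) and without array 2 it was 1.13 (adjusted p = 0.0916). It also missed the threshold when siRNA 1 array 1 (1.35, adjusted p = 0.0515) or siRNA 3 array 1, 2 or 3 was left out (1.35, 1.36 and 1.33, adjusted p = 0.0589, 0.0601 and 0.0659). Without siRNA 2 array 3, the difference from siRNA 1 became 2.14 (adjusted p = 0.0136) and that of siRNA 3 from siRNA 2 became -2.08 (adjusted p = 0.0119), both then resting on the 2 Cy5 arrays. DUSP6 probe 2 had a ratio on 6 of 9 arrays, from -0.22 to 0.31, and was not tested because siRNA 2 had no Cy5 ratio.

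The Sprouty proteins SPRY2 and SPRY4 restrain receptor tyrosine kinase signalling upstream of ERK. SPRY2 read 0.39, 0.62 and 0.08 with siRNA 1, 0.84, 0.36 and -0.22 with siRNA 2, and 0.23, 0.45 and -0.16 with siRNA 3. The SPRY2 probe was dim, and a channel exceeded the upper quartile of the negative controls on 2 of 9 arrays. All 6 Cy5 arrays were above all 3 swapped arrays. The dye-adjusted estimates of 0.27, 0.23 and 0.07 (SE 0.113 each) were not called (adjusted p = 0.147, 0.192 and 0.749). Without siRNA 2 array 1, a spot of quality 0, the siRNA 1 estimate became 0.28 (adjusted p = 0.0311). That estimate was also called after median centring (0.34, adjusted p = 0.0423) and in the authors' deposited ratios (0.39, adjusted p = 0.0342). In all, 3 of 18 alternatives called it. SPRY4, measured by the probe assigned through its accession, had both channels above the upper quartile of the negative controls on all 9 arrays and log2 ratios from -0.39 to 0.19. Its ratios fell on both sides of 0 with each siRNA. Its estimates of -0.04, -0.04 and -0.01 (SE 0.145 each) had adjusted p of 0.899, 0.858 and 0.984. Averaged over the siRNAs, SPRY4 had a 95% interval from -0.19 to 0.13, which leaves room for small changes in either direction.

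ETV4 and ETV5 are ETS-family factors induced by ERK and, in many tissues, by fibroblast growth factor signalling. Both probes were dim. A channel exceeded the upper quartile of the negative controls on 1 of 9 arrays for ETV4 and on 0 of 9 for ETV5. ETV4 had ratios from -0.20 to 0.32, spanning 0 with each siRNA. Its estimates of 0.12, 0.07 and 0.12 (SE 0.0919 each) were not called (adjusted p = 0.424, 0.591 and 0.472). ETV5 read -0.26, -0.57 and -0.01 with siRNA 1, -0.52, -0.52 and -0.01 with siRNA 2, and -0.31, -0.24 and 0.07 with siRNA 3. The 6 Cy5 arrays were all lower than the 3 swapped arrays, which lay close to 0. ETV5 fell by 0.28 ± 0.0673 with siRNA 2 (1.21-fold lower, adjusted p = 0.0299). The estimates were -0.21 with siRNA 1 (adjusted p = 0.0656) and -0.09 with siRNA 3 (adjusted p = 0.437). The siRNA 2 value depended on the normalization and was not called at -0.10 with loess in each print block (adjusted p = 0.371), at -0.81 after median centring (adjusted p = 0.145) or at -0.83 in the authors' deposited ratios (adjusted p = 0.128). The knockdown channel of siRNA 2 array 2 was not above local background. Leaving out any 1 array of siRNA 2 ended that call (-0.26, -0.27 and -0.33, adjusted p = 0.0808, 0.0681 and 0.0817), as did leaving out siRNA 1 array 3 or siRNA 3 array 1 or 3 (-0.28, -0.28 and -0.27, adjusted p = 0.0545, 0.0542 and 0.0557). Without siRNA 1 array 1 the siRNA 1 estimate was -0.29 (adjusted p = 0.0288).

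The 2 dye orientations differed at several members. The dye term, the log2 ratio with the knockdown in Cy5 minus that on the swapped array, was called at 4 of 13 member probes and at 29.2% of all tested probes. It was -0.62 ± 0.0933 at DUSP4 probe 1 (adjusted p = 0.00554) and -0.42 ± 0.0808 at ETV5 (adjusted p = 0.0121). At SPRY2 it was 0.58 ± 0.136 (adjusted p = 0.0223) and at IER3 probe 1 it was 0.38 ± 0.0477 (adjusted p = 0.00333). These members read in one direction in one orientation and near 0 or in the other direction in the other. How many of all tested probes lacked overlap between the orientations was not counted. DUSP4 probe 1 averaged -0.49 ± 0.225 (SD, n = 6) on the Cy5 arrays and 0.13 ± 0.117 (SD, n = 3) on the swapped arrays. For SPRY2 these means were 0.48 ± 0.217 and -0.10 ± 0.161. At FOS the dye term was -0.38 ± 0.118 (adjusted p = 0.0533) and at EGR1 0.01 ± 0.1 (adjusted p = 0.933). At JUN it was 0.22 ± 0.0853 (adjusted p = 0.0985), with the lowest Cy5 array at 0.158 and the highest swapped array at 0.146. With 1 swapped array per siRNA, a dye effect that differs between siRNAs cannot be told apart from the spread between arrays.

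**Figure D3:**
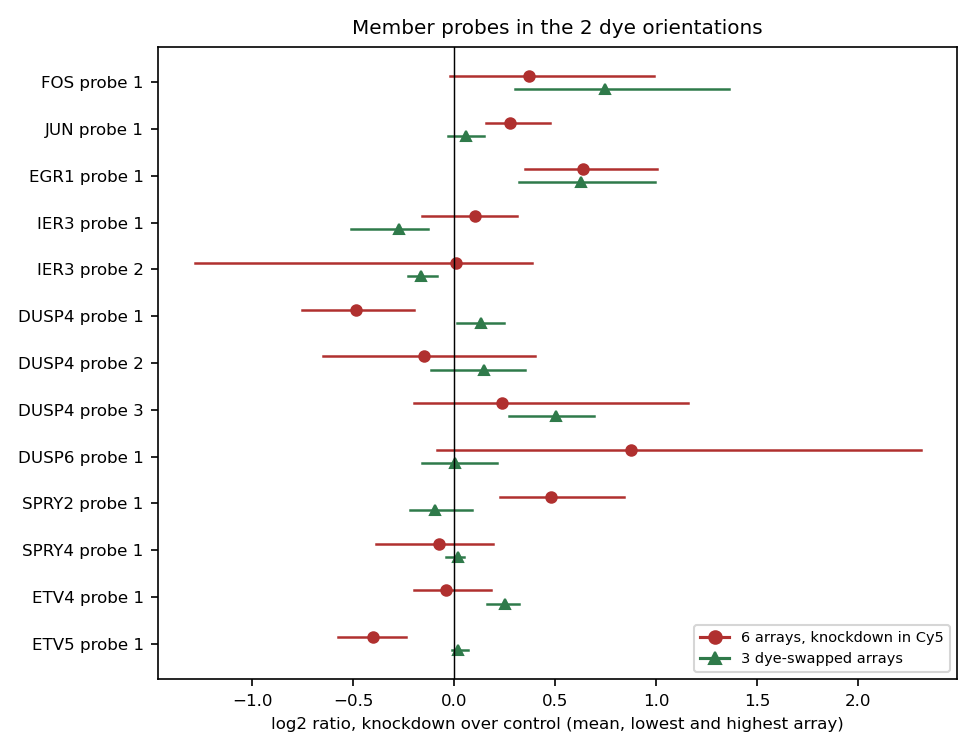
For each of the 13 tested member probes the mean log2 ratio (x axis, knockdown over control) is a circle where the knockdown carried Cy5 (6 arrays) and a triangle for the 3 dye-swapped arrays, with lines from the lowest to the highest array. The ranges of DUSP4 probe 1, SPRY2, ETV5 and, narrowly, JUN do not overlap between the 2 orientations. Those of EGR1 nearly coincide. Non-overlap was not counted over all tested probes, of which 29.2% were called for the dye term.

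Other genes of the pathway were followed in 4 lists, each gene by its brightest tested probe, and no list gene was called across the siRNAs by limma. At an unadjusted p under 0.05 there were 9 of the immediate early genes, 9 of the feedback genes, 7 of the ERK cascade and 5 of the stress kinase branches, against 24.2% of all genes. The background in this setting was 11.8% higher and 14.4% lower calls with siRNA 1, 9.49% and 13% with siRNA 2, and 12.5% and 11.5% with siRNA 3, over 14069 genes. Of 29 measured immediate early genes and their regulators (34 listed), 10 rose and 0 fell with siRNA 1, 6 rose and 4 fell with siRNA 2, and 2 rose and 2 fell with siRNA 3. The median over the siRNAs was 0.10, or 0.06 in the authors' deposited ratios and 0.04 after median centring. Over all tested probes the corresponding medians were 0.0004, -0.02 and -0.05. KLF10, a transforming growth factor beta-inducible zinc finger repressor, and MYC, the growth-promoting transcription factor, rose with each of the 3 siRNAs, and 3.21% of all genes did so, with 3.38% falling with each. KLF10 rose by 0.52, 0.37 and 0.42 with siRNA 1, 2 and 3 (adjusted p = 0.00124, 0.00577 and 0.00361), while its dimmer second probe read 0.23, 0.27 and -0.03 and was not called. MYC rose by 0.31, 0.25 and 0.47 (adjusted p = 0.00692, 0.0204 and 0.00218), and its second, dim probe read 0.27, 0.0004 and 0.35 and was not called. The stress-responsive factor ATF3 had the highest mean of the list, 0.57, and rose with siRNA 1 (1.01, adjusted p = 0.000444) and siRNA 2 (0.44, adjusted p = 0.00898) and read 0.25 with siRNA 3 (adjusted p = 0.0647). At the low end, IER2 fell with siRNA 2 (-0.29, adjusted p = 0.0307) and siRNA 3 (-0.39, adjusted p = 0.0107), and the ETS factor ETS2, on a dim probe, fell with siRNA 3 (-0.63, adjusted p = 0.00246).

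Of 26 measured feedback and delayed target genes (34 listed), 11 rose and 0 fell with siRNA 1. With siRNA 2, 5 rose and 3 fell, and with siRNA 3, 3 rose and 1 fell. Their median over the siRNAs was -0.01. DUSP3, a small dual-specificity phosphatase, rose with each siRNA, by 0.19, 0.16 and 0.25 (adjusted p = 0.0144, 0.0316 and 0.00591). AREG, which encodes the EGF receptor ligand amphiregulin, rose with siRNA 1 (0.97, adjusted p = 0.000593) and siRNA 2 (0.36, adjusted p = 0.025) and read 0.15 with siRNA 3 (adjusted p = 0.26). RGS2, a regulator of G protein signalling measured by a dim probe, rose with siRNA 1 (0.92, adjusted p = 0.0279). CCND1, the cyclin of the G1 phase, had the lowest mean of the list, -0.35, and fell with siRNA 2 (-0.59, adjusted p = 0.00102) and siRNA 3 (-0.38, adjusted p = 0.0046).

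Among 33 measured components of the ERK cascade (34 listed), 9 rose and 4 fell with siRNA 1, 2 rose and 6 fell with siRNA 2, and 5 rose and 4 fell with siRNA 3, with a median over the siRNAs of 0.0047. The atypical kinase gene MAPK6 rose with each siRNA, by 0.53, 0.51 and 0.30 (adjusted p = 0.00171, 0.0026 and 0.0158), and was above 0 on all 9 arrays. The GTPase gene HRAS was below 0 on all 9 arrays and fell with siRNA 1 (-0.32, adjusted p = 0.0137) and siRNA 3 (-0.47, adjusted p = 0.00391). PEBP1, whose product binds and inhibits RAF, fell with the same pair of siRNAs, by 0.31 and 0.39 (adjusted p = 0.00713 and 0.00378). Of 20 measured components of the stress kinase branches (24 listed), 4 rose and 2 fell with siRNA 1, 0 rose and 4 fell with siRNA 2, and 1 rose and 1 fell with siRNA 3, and the median over the siRNAs was -0.02. MAPK14, which encodes p38 alpha, was below 0 on all 9 arrays and fell with siRNA 2 (-0.35, adjusted p = 0.00637) and siRNA 3 (-0.32, adjusted p = 0.00869). Of the 2 other MAPK14 probes, 1 read 0.07, -0.17 and -0.16 with siRNA 1, 2 and 3. The other, a dim probe, read 0.22, 0.32 and 0.18, opposite in sign to the brightest probe with each siRNA. Neither was called. MAPK8, measured by a dim probe with a ratio on 7 arrays, had the highest mean of the list, 0.56. It was above 0 on all 7 and rose with siRNA 1 (0.71, adjusted p = 0.0152).

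**Figure D4:**
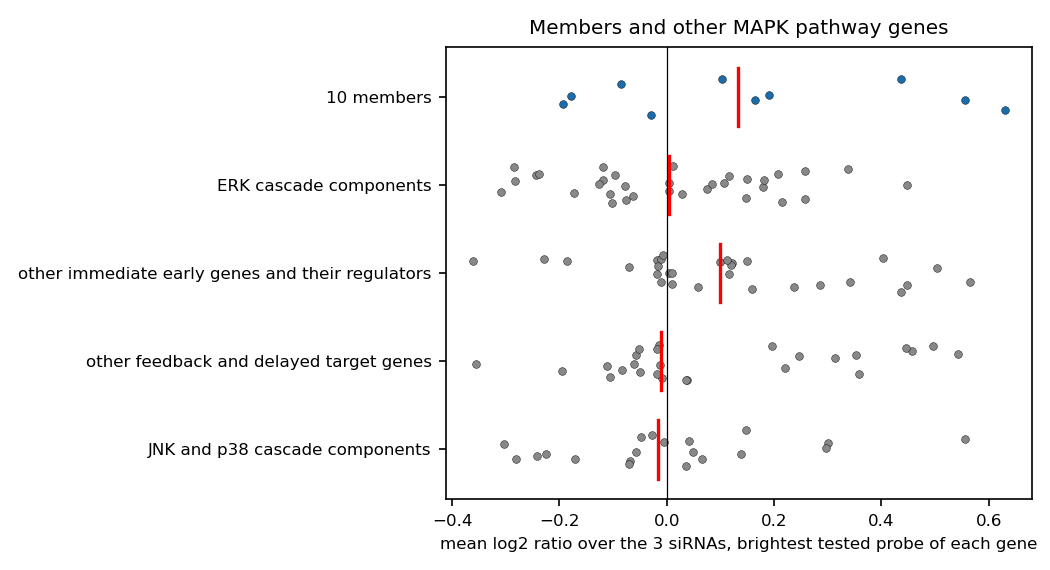
Each point is a gene's mean log2 ratio over the 3 siRNAs (x axis, knockdown over control, brightest tested probe), for the 10 members and the 4 lists of other pathway genes, and the red line is the median of each row. The members' median is 0.13, that of the other immediate early genes 0.10, and the other 3 medians lie within 0.02 of 0.

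The genes whose ratios over the 9 arrays were closest to those of FOS and of EGR1 were found by the root mean square difference in log2 ratio, among 12732 other genes with 9 ratios. For FOS these were AREG (0.159), NCOA7 (0.164), SUCO (0.184), POU2F2 (0.19) and LURAP1L (0.193). AREG and the other 4 read between 0.76 and 1.07 with siRNA 1, between 0.36 and 0.56 with siRNA 2 and between 0.15 and 0.28 with siRNA 3. For EGR1 they included SEC24D (0.135), BAG3 (0.151), DAPP1 (0.152) and PLK2 (0.154). BAG3, a cochaperone of HSP70, read 0.94, 0.39 and 0.47 with siRNA 1, 2 and 3. The nearest genes share arrays with FOS and EGR1, so this likeness is a description.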

How the data were processed

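Total RNA was amplified, coupled to Cy3 or Cy5 and hybridised to spotted oligonucleotide arrays, per the labels' protocols; the sources used here name no image program. The deposited intensity columns hold the mean spot intensity minus local background for each channel, with a floor of 1 where no spot was found, beside local background values and a spot quality fraction between 0 and 1 that the authors deposited. The authors' deposited ratio divides the channels by 1 factor per array, and their deposited log2 table is the log2 of that ratio. In the array files of dye-swapped hybridisations the channels had been exchanged before deposit, per the labels, so the knockdown is the numerator throughout. The deposited log2 values equalled the log2 of the array file's ratio on the other arrays and its negative on the swapped ones. They were used for this check alone, and results in the authors' ratios come from the array files.

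Log2 ratios of the deposited intensities were normalized here by loess within each array, with the 556 control probes left out, using limma 3.58.1 in R 4.3.3. No further background correction was applied. Probes were tested (28128 of 35328) under 2 rules. On 6 or more arrays a channel lay above 2 standard deviations of local background, and both dye orientations of every siRNA gave a ratio. Of 188 randomized negative control probes, 138 met the first rule, the signal rule, taken alone. A dim member can therefore meet it while lying in their range. Across siRNAs, 1 value per siRNA was tested against 0. Single siRNAs, their differences and the dye term came from 1 model over 9 arrays. P-values are two-sided and Benjamini-Hochberg adjusted. Dim probes are those with an average log2 intensity under 8.64. The fits were tested on simulated data.

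The members, the lists and the rule for naming list genes were chosen with earlier results of these data known. Named list genes are those called in the same direction with each siRNA, and some of the 3 highest and 3 lowest means over the siRNAs. The genes nearest to FOS and EGR1 are the 5 with the smallest difference over the arrays, of which 1 is not reported here. The number of arrays limits the precision. Alternatives covered normalization, filters, the dye term, probe averaging, orientation, siRNA as a random block and leaving out each array.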

Additional observations from a re-analysis of the deposited data

Results flagged for a closer look

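The response of 3 of 13 tested member probes differed between siRNAs by the test of the difference itself, which measures spread between hybridisations only. Of all tested probes, 9.34% were called for siRNA 3 minus siRNA 1 and 10.2% for siRNA 3 minus siRNA 2. FOS was lower with siRNA 3 than with siRNA 1, by a log2 difference of -0.87 (estimates 0.17 and 1.04). For DUSP4 probe 2 the same difference was -0.79 (estimates -0.40 and 0.39), while the bright DUSP4 probe 1 gave -0.35 (adjusted p = 0.0946; called in 5 of 20 alternatives) and the average of the DUSP4 probes gave -0.58 (adjusted p = 0.0334). IER3 probe 1 was lower with siRNA 3 than with siRNA 1 by -0.42 and than with siRNA 2 by -0.33, and IER3 probe 2 gave 0.03 and 0.51 for these differences (adjusted p = 0.98 and 0.469). The knockdown of TRMT12 itself differed little between the siRNAs, by 0.16 between siRNA 3 and siRNA 1 (adjusted p = 0.328).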

How the results depend on the processing

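No paired analysis was possible because the replicate numbers follow accession order and the labels tie no array of an siRNA to an array of another. The number of member probes called was 0 of 13 across the siRNAs, 4 with each siRNA, 0 for siRNA 2 minus 1 (4 at an unadjusted p under 0.05), 3 for siRNA 3 minus 1, 1 for siRNA 3 minus 2 and 4 for the dye term, and moved by over 1.5 times as follows. The share of all tested probes called in the same setting stands in brackets. Median centring gave 1 with siRNA 2 (7.86%) and 0 for both differences involving siRNA 3 (0.238% and 0.217%). Loess in each print block gave 5 for siRNA 3 minus 1 (13.3%). The authors' ratios gave 2 with siRNA 2 (13.3%) and 0 for siRNA 3 minus 2 (3.52%). Normexp gave 1 for siRNA 2 minus 1 (3.81%) and 2 for siRNA 3 minus 2 (11.5%). Requiring both channels above background on each array, and dropping low-quality spots, each gave 1 across siRNAs, 2 with siRNA 2, and 2, 5 and 2 for the 3 differences, with 10 and 9 member probes left; of all probes the first called 7.48%, 31.8%, 7.85%, 17.7% and 19.2%, the second 7.32%, 35.1%, 9.92%, 21.2% and 21.7%. Equal spread of ratios gave 2 for siRNA 3 minus 2 (11.4%) and 7 for the dye term (36.4%). The mean of probes gave 1 with siRNA 3 (19.3%) and 0 for siRNA 3 minus 2 (8.7%), where IER3 reversed to 0.0873. Without the dye term 1 was called with siRNA 2 (9.15%), 1 with siRNA 3 (9.49%) and 0 for both differences involving siRNA 3 (1.44% and 1.64%). The dye-swapped arrays alone gave 3 across siRNAs (FOS, EGR1 and DUSP4 probe 3; 16.7%), and siRNA as a random block, which counts the 9 arrays (consensus correlation 0.337), gave 2 (FOS and EGR1; 13.6%). Both channels above the negative control quartile, a filter chosen after seeing the data, left 6 member probes and gave 1 across siRNAs (10.6%), 2 with siRNA 1 (47.1%) and 1 for siRNA 2 minus 1 (16.9%). Keeping the control probes, also added later and run across siRNAs alone, left 0 called there. Leaving out 1 array at a time gave 0 to 1 across siRNAs (0% to 3.17% of all probes) and 2 to 5 with siRNA 1 (9.05% to 32%). It gave 1 to 4 with siRNA 2 (12.7% to 20.5%) and with siRNA 3 (7.98% to 27.6%), and 2 to 5 for the dye term (11.5% to 36.6%). Counts were 0 to 1 for siRNA 2 minus 1 (0.267% to 2.13%), 0 to 4 for siRNA 3 minus 1 (1.47% to 15.3%) and 0 to 2 for siRNA 3 minus 2 (2.12% to 10.2%).

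EGR1 kept its sign in every alternative run, with 0.55 to 0.67 across the siRNAs, where 6 of 23 alternatives called it; its calls held in 20, 19 and 17 of 20 alternatives with siRNA 1, 2 and 3. FOS was called in 19 of 19 with siRNA 1, in 16 of 19 with siRNA 2 and in 13 of 19 for siRNA 3 minus 1. Without the dye term FOS with siRNA 2 was 0.40 (adjusted p = 0.136). After median centring EGR1 was 0.45 with siRNA 2 and 0.38 with siRNA 3 (adjusted p = 0.0525 and 0.0654). ETV5 with siRNA 2 was called in 6 of 17 and DUSP6 in 8 of 17. Each such tally, here and above, includes a run without the signal filter. That run tested the same 28128 probes as the main fit and repeats its results. TRMT12 missed the threshold across siRNAs with the authors' ratios (adjusted p = 0.0531), with the Cy5 arrays alone (0.0895) and without siRNA 2 array 3 (0.0546). The causes were not tested. A sign change was counted as a reversal where either value was called, a rule set after seeing the values: 135 of 1453 uncalled values turned sign and remained uncalled.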
